A study of Macaca mulatta with 20 samples.

Results

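The testis samples were 4 of the 20 samples of the series, chosen by their label, and each sample was 1 array. All 20 arrays held total RNA of the rhesus macaque (Macaca mulatta), and the other 16 held RNA of cerebral cortex, pancreas, thymus or immortalized fibroblasts, with 4 arrays per source. Immortalized fibroblasts are connective tissue cells that keep dividing in culture, so this source is a cell line and the others are whole tissues. Aliquots of each RNA were labelled with biotin and hybridized to 2 Affymetrix arrays made for the rhesus macaque (rhesus chips) and to 2 made for human (human chips), and neither a treatment nor an altered allele is named for any source. How many animals gave each tissue, and their age, was not given in the sources used here. By the labels, arrays of 1 source are technical replicates, so every error and p-value below measures the spread between arrays and compares 5 RNA preparations rather than groups of animals.

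The testis holds a small set of cell types with sharply separate roles. Sertoli cells nurse the germ cells inside the seminiferous tubules, peritubular myoid cells wrap the tubules, and Leydig cells between the tubules turn cholesterol into testosterone. Germ cells pass from spermatogonia through meiosis to spermatids and sperm, and the last of these steps uses genes, such as those of the protamines, that few other cells use. In RNA of a whole tissue, fewer cells of a type and less RNA per cell cannot be told apart.

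Every level below is a deposited signal on the log2 scale, so a step of 1 is a 2-fold step. A gene was read from the probe set with the highest mean level over the 10 arrays of a type, among probe sets assigned to 1 gene symbol. Probe sets for bacterial genes that were not added to the samples had mean levels of 2.13 to 3.12 on the rhesus chips and of 2.14 to 3.12 on the human chips, and this range is called the floor. The study found that single-base mismatches between human probes and rhesus transcripts lowered the signal. A level at the floor on the human chips therefore does not show that a transcript was absent. The testis arrays gave tight pairs, with a pooled SD within the pair of 0.137 on the rhesus chips and 0.151 on the human chips. Pancreas had the widest gap between 3′ and 5′ control probe sets, a sign of RNA quality, by 3 of 4 measures. The 3′ probe set of actin was above its 5′ probe set by 4.58 in pancreas on the rhesus chips, against 2.66 in testis and 2.07 to 2.65 in the other 3 sources. For GAPDH the gaps in pancreas and testis were 2.77 and 1.51 on the rhesus chips and 1.31 and 0.37 on the human chips, but for actin on the human chips testis was widest, at 2.47 against 2.40 in pancreas.

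The first question was which genes set testis apart. The testis difference of a gene is its mean level in testis minus the mean of the other 4 source means, given with its standard error (±), and a gene was called higher or lower when limma's adjusted p was under 0.05 and the difference was at least 1 in size. On the rhesus chips 2282 of 14132 genes (16.1%) were higher in testis and 1583 (11.2%) were lower. On the human chips 1714 of 19775 genes (8.67%) were higher and 1113 (5.63%) were lower. Genes higher in testis than in each of the other 4 sources taken singly were 4.17% of genes on the rhesus chips and 2.36% on the human chips, and genes lower than in each were 0.467% and 0.147%. A gene that stood above every other source in testis was thus far commoner than one that stood below every other source. Of 11956 genes read on both array types, 994 (8.31%) were higher on both, 601 (5.03%) were lower on both, 236 (1.97%) were higher than in each other source on both, and 24 were called in opposite directions. The array types read aliquots of the same RNA, so a gene called on both is a repeated reading and not a second animal. The markers set for the testis label, INHA, STAR, TKTL1 and GSTA3, were each higher than in every other source on both, and no testis array overlapped with another source for any of them. These markers were set with earlier results of these data known, so their high levels are not a separate check of the label.

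**Figure D1:**
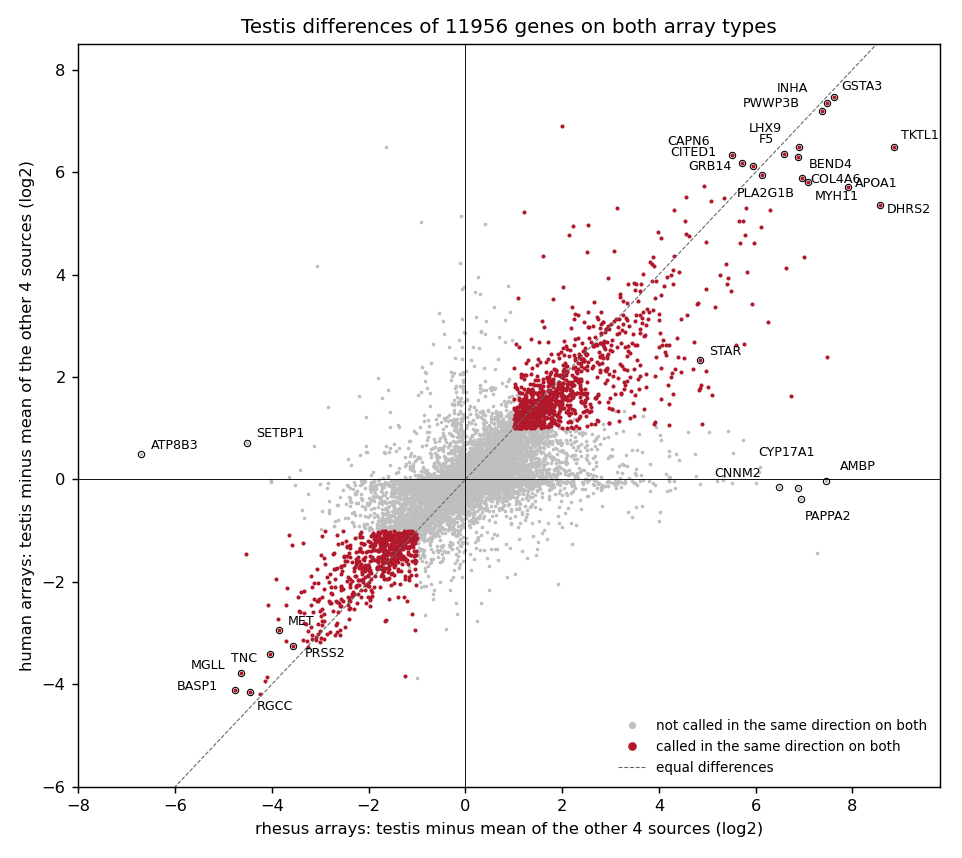
Testis difference (log2) of each gene read on both array types, with the rhesus chips on the horizontal axis and the human chips on the vertical axis. Red points were called in the same direction on both. INHA, GSTA3 and TKTL1 lie at the upper right, and CYP17A1, AMBP, PAPPA2 and CNNM2 are high on the rhesus chips and near 0 on the human chips, where CYP17A1 has a dimmer probe set at 5.80 that is not plotted.

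The 15 genes with the highest mean difference over both array types were TKTL1, GSTA3, INHA, PWWP3B, DHRS2, APOA1, LHX9, BEND4, F5, MYH11, COL4A6, PLA2G1B, GRB14, CITED1 and CAPN6. All 15 were called on both array types, and all but PLA2G1B were higher than in each other source on both. The group holds a gonadal hormone subunit (INHA), a homeobox factor of the forming gonad (LHX9), a transketolase-like protein (TKTL1), a glutathione transferase that also acts on steroids (GSTA3), smooth muscle myosin (MYH11) and a basement membrane collagen (COL4A6). APOA1, the main protein of high-density lipoprotein, read 10.18 and 10.13 on the rhesus testis arrays, and the other 8 arrays read 2.17 to 2.38. Its testis levels on the human chips were 8.80 and 8.85, and the other arrays read 2.61 to 4.16. LHX9 read 9.48 and 9.44 on the rhesus testis arrays against 2.47 to 2.74 elsewhere. Testis and the other sources did not overlap for either gene on either array type. On the human chips the called probe sets of APOA1 and of F5, a coagulation factor, were of a kind that can match several transcripts (identifier ending in _s_at or _x_at), and without that kind the brightest probe set differed by -0.03 and -0.04, while for CAPN6, a calpain-like protein, it differed by 1.38 and was not called. PLA2G1B, the phospholipase that the pancreas secretes, was the exception in the group, since pancreas was above testis. Its testis levels were 11.69 and 11.58 on the rhesus chips, where cortex, fibroblasts and thymus were at the floor and pancreas was at 15.37, and the human chips gave 11.78 and 11.63 and a pancreas mean of 15.40.

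The differences were then read by lists of genes known for a cell type or a pathway. A list is given by how many of its measured members were called and by its median difference, and where a list has few members called one way they are named, a choice made after their values were seen. The median over all genes was -0.08 on the rhesus chips and -0.06 on the human chips. Each count is to be read beside the shares over all genes, 16.1% higher and 11.2% lower on the rhesus chips and 8.67% and 5.63% on the human chips. The lists of imprinted growth genes, Sertoli cell genes, the piRNA pathway, the extracellular matrix and Leydig cell genes had the highest medians on the human chips among lists with over 10 measured members.

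**Figure D2:**
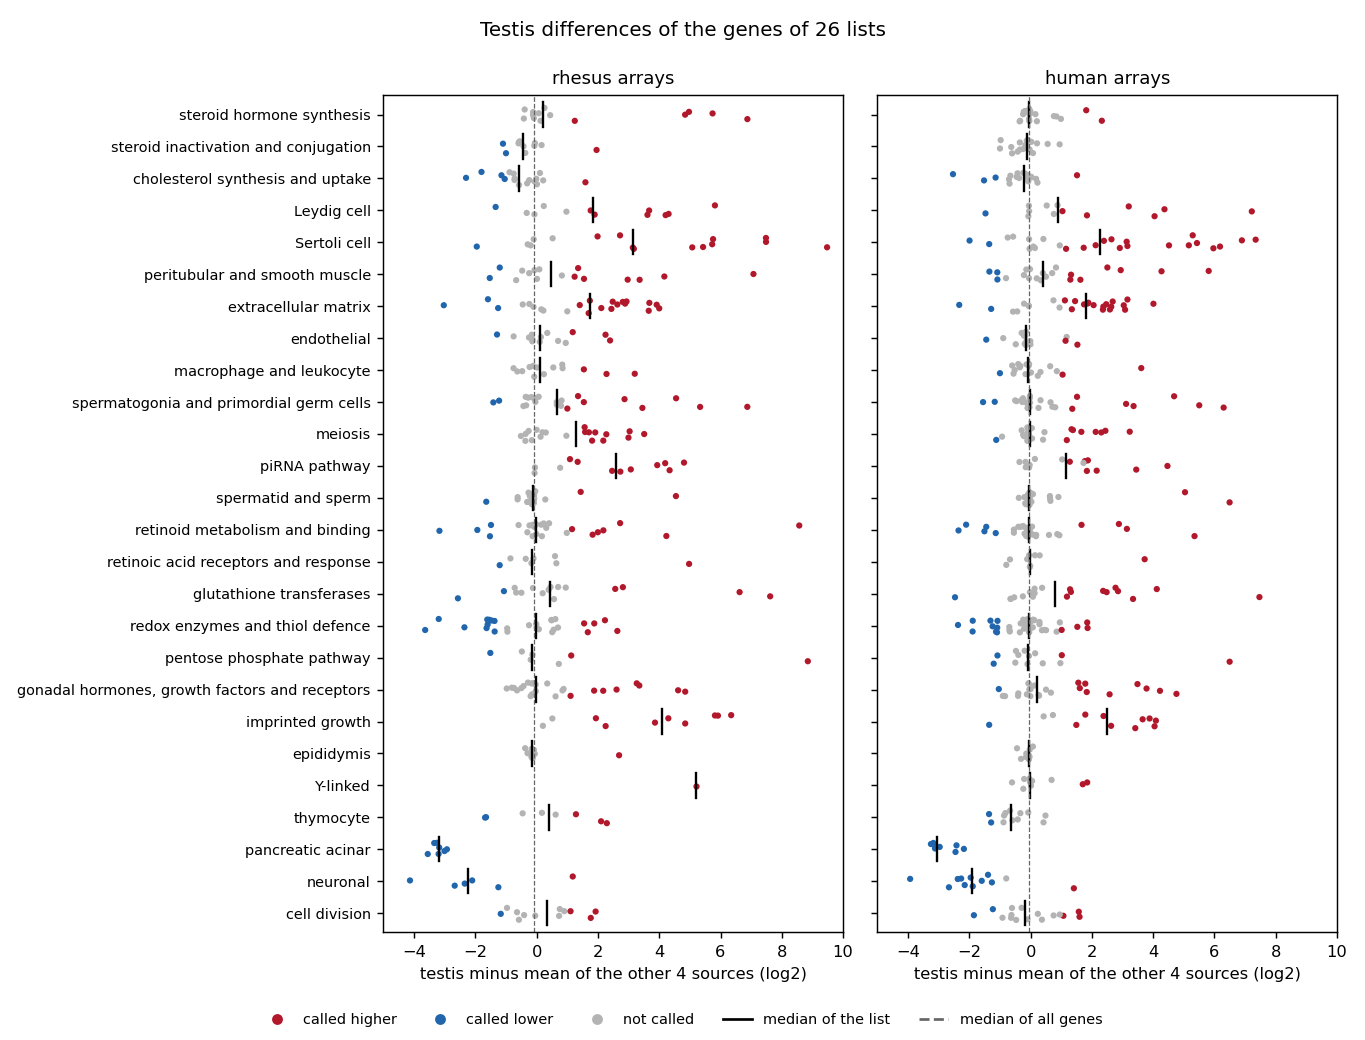
Testis difference (log2, horizontal axis) of each measured gene of the lists, on the rhesus and on the human chips. Each point is a gene, red where higher, blue where lower and grey where not called, and the black bar is the list's median. The pancreatic acinar and neuronal lists lie to the left, and the Sertoli cell list to the right, with a median of 3.15 on the rhesus chips.

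Most measured Sertoli cell genes were higher in testis. Of the measured genes of this list, 11 of 16 were higher and 1 was lower on the rhesus chips, with a median difference of 3.15. The human chips had 16 of 26 higher and 2 lower, with a median of 2.26. The lower genes were NR4A1, an immediate early receptor, on the rhesus chips and GJA1 and HOPX on the human chips. All 11 genes called higher on the rhesus chips were also higher than in each other source taken singly. AMH, the hormone by which the fetal testis makes the Müllerian ducts regress, was read on the rhesus chips only. It stood at 11.67 and 11.49 in testis, and the other 8 arrays lay within 2.05 to 2.16, at or under the floor, so that its difference was 9.48 ± 0.05 (adjusted p = 1.98e-09 from limma). Its receptor, AMHR2, read 7.66 and 7.63 in testis on the rhesus chips and 7.64 and 7.53 on the human chips, which gave differences of 5.08 ± 0.06 and 5.43 ± 0.29. FSHR, the receptor through which follicle-stimulating hormone reaches Sertoli cells, read 8.2 and 8.09 on the human testis arrays against 2.15 to 2.25 elsewhere. For all of these genes every testis array lay above every other array.

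INHA, the inhibin alpha subunit that Sertoli cells secrete, had testis levels of 10.83 and 10.89 on the rhesus chips, and the other 8 arrays read 2.48 to 5.04 with a median of 3.05. The human chips gave 9.85 and 10.07 in testis and 2.46 to 3.48 elsewhere. The differences were 7.48 ± 0.07 (adjusted p = 1.5e-08 from limma) and 7.34 ± 0.20 (limma's adjusted p = 3.14e-06). Pancreas was the next highest source on both. INHBB, the inhibin beta subunit that pairs with it in inhibin B, differed by 1.99 ± 0.11 on the rhesus chips, where its second probe set was not called, and by 6.89 ± 0.08 on the human chips. CITED1, a transcription co-regulator, differed by 5.73 ± 0.11 and 6.18 ± 0.16.

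The transcription factors that build the Sertoli cell were read as well, and were picked for mention after their values were seen. WT1, a factor of gonad and kidney development, stood at 11.10 and 11.16 in testis on the rhesus chips and at 6.36 and 6.59 on the human chips, with fibroblasts next at 5.24 and 5.24. Its dimmer probe sets were called too, without that fibroblast signal. They read 9.24 in testis and 2.85 in fibroblasts on the rhesus chips, and 8.85 and 2.39 on the human chips. SOX9, which starts Sertoli cell fate, stood at 12.33 and 12.28 on the human testis arrays, and pancreas and cortex were next at 10.29 and 9.64. DMRT1, which keeps the male fate of these cells, differed by 4.52 ± 0.03 on the human chips. GATA4, a zinc-finger factor of gonad and heart, differed by 5.76 ± 0.07 on the rhesus chips, where all 3 of its probe sets were called, and by 2.64 ± 0.20 on the human chips, where 2 of 5 were. All 4 factors were higher in testis than in each other source wherever they were read.

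Genes of the junctions between Sertoli cells moved unequally. CLDN11, the claudin of the blood-testis barrier and of myelin, read 9.46 and 9.87 in testis and 9.05 in cortex on the human chips, and was not higher than in cortex by the call. TJP1, which encodes the scaffold protein ZO-1 and was picked after its values were seen, was higher by 3.17 ± 0.04 and 3.13 ± 0.05. GJA1, a connexin of gap junctions, was lower by the call on the human chips, with a difference of -1.99 ± 0.14, and fibroblasts read 12.95 against 8.33 and 8.19 in testis. Among products of mature Sertoli cells that were not called, SHBG, which encodes the androgen-binding protein, was at the floor, at 2.31 and 2.29 in testis on the human chips. GDNF, the niche factor for spermatogonial stem cells, read 3.08 and 3.12 in testis on the rhesus chips, within the floor, and its difference was -0.29 ± 0.04.

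Several Leydig cell genes and enzymes of androgen synthesis were higher in testis, and some of the enzymes were called on the rhesus chips alone. On the Leydig cell list, 7 of 12 measured genes were higher and 1 was lower on the rhesus chips, with a median of 1.83, and 6 of 13 were higher and 1 was lower on the human chips, with a median of 0.88. The lower gene was NR5A2, a nuclear receptor of pancreas and liver, on both, and without pancreas in the contrast it stood at 0.57 and 0.04. INSL3, the peptide hormone by which Leydig cells bring the testis down, read 9.78 and 9.84 on the human testis arrays against 2.55 to 2.66 on the other 8, a difference of 7.22 ± 0.02 (adjusted p = 5.79e-10 from limma), and all 3 of its probe sets were called. DLK1, a Notch-family ligand of stem and stromal cells, read 10.28 and 10.24 on the rhesus chips and 6.81 and 6.99 on the human chips, with pancreas next at 8.84 and 4.27. Its called human probe set was of the kind that can match several transcripts, and the other differed by -0.04. GATA6, a zinc-finger factor, was not called higher than in pancreas, which read 9.50 against 9.76 and 9.69 in testis on the rhesus chips. NR0B1, the nuclear receptor DAX1, NR2F2, a nuclear receptor of Leydig precursor cells, and IGF1, a growth factor, differed by 4.21 ± 0.29, 3.67 ± 0.08 and 3.62 ± 0.19 on the rhesus chips. A factor and a receptor that drive steroid synthesis in Leydig cells were not called. NR5A1, the steroidogenic factor 1, read 2.77 and 4.12 on the rhesus testis arrays, which disagreed with each other, and 3.42 and 3.27 on the human chips, and its differences of 0.97 ± 0.31 and 0.88 ± 0.06 missed the call. LHCGR, the receptor for luteinizing hormone, was at the floor on the human testis arrays, at 2.40 and 2.41.

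The route from cholesterol to androgens can be followed step by step. STAR, which carries cholesterol into the mitochondrion, read 7.63 and 7.29 in testis on the rhesus chips, where the other 8 read 2.54 to 2.71, and its difference was 4.84 ± 0.08 (adjusted p = 1.2e-07 from limma). The human chips read 4.52 and 5.19 in testis and 2.5 to 2.59 elsewhere, a difference of 2.32 ± 0.16 (limma's adjusted p = 0.000122). Every testis array was above every other array, by a smaller margin on the human chips. CYP11A1, which cuts the cholesterol side chain, was read on the human chips only, at 4.20 and 3.61 in testis, a difference of 1.82 ± 0.14. FDXR, which passes electrons to that enzyme, differed by 4.97 ± 0.12 on the rhesus chips. HSD3B2, the next enzyme of the route, has a close relative, HSD3B1, with which probes can be shared. It read 8.48 and 8.47 on the rhesus testis arrays, with a difference of 5.74 ± 0.02, and 3.34 and 2.66 on the human ones, where it was not called. TSPO, a protein of the outer mitochondrial membrane, was higher by 1.24 ± 0.07 on the rhesus chips, with fibroblasts above testis at 10.31 and testis at 8.89 and 8.91. CYP17A1, which makes the androgen precursors, read 9.6 and 9.67 on the rhesus testis arrays against 2.65 to 3.04 elsewhere, a difference of 6.88 ± 0.04, and its other rhesus probe set was not called. On the human chips the probe set with the higher mean over all arrays read 3.60 and 3.67 in testis and was not called, while the other read 8.02 in testis and 2.19 to 2.26 in the other sources, a difference of 5.80 that was called. HSD17B3, which makes testosterone, stood at 3.15 and 2.65 on the human testis arrays, a difference of 0.84 ± 0.12 that was not called.

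By the list of steroid hormone synthesis, 5 of 14 genes were higher and 0 were lower on the rhesus chips (limma's unadjusted p was under 0.05 with a negative difference for 3), with a median of 0.19. By the human chips 2 of 21 were higher and 0 were lower (with a negative difference and limma's unadjusted p under 0.05 for 5), with a median of -0.04, so the share higher was near the 8.67% of all genes. The human genes were STAR and CYP11A1, which a filter on a source mean of at least 5 removes, so that it left 0 of them. Of the steroid inactivation and conjugation genes, AKR1D1, a steroid reductase, was the 1 of 11 higher on the rhesus chips, by 1.95 ± 0.31, HSD11B1 and DHRS11 were the 2 lower (HSD11B1 stood at 0.36 without fibroblasts in the contrast), and 0 of 19 were called on the human chips, where limma's unadjusted p was under 0.05 for 10. AKR1D1 read 8.13 in testis and 8.02 in thymus on the rhesus chips, and it was within the floor in every source on the human chips. Genes of cholesterol synthesis and uptake were lower more often than higher, with 4 of 17 lower and 1 higher on the rhesus chips, a median of -0.58, and 3 of 20 lower and 1 higher on the human chips, a median of -0.21. Over all genes, 11.2% were lower and 16.1% higher on the rhesus chips and 5.63% and 8.67% on the human chips. INSIG1, which holds the sterol sensor back in the endoplasmic reticulum, was lower by the call on both, with differences of -2.31 ± 0.08 and -2.53 ± 0.04, and was not called on the human chips by its brightest probe set for a single transcript (-0.68). EBP, a sterol isomerase, differed by -1.80 ± 0.06 and -1.52 ± 0.08. The other lower genes were MVD and PMVK, of the mevalonate route, on the rhesus chips and ACAT2, which makes acetoacetyl-CoA, on the human chips, and all 3 lost the call without fibroblasts in the contrast, at -0.79, -0.91 and -0.54. TM7SF2, a sterol reductase, was higher by 1.59 ± 0.13 and 1.51 ± 0.09. Its rhesus call was lost without probe sets that can match several transcripts, at 0.26, and with its probe sets averaged, at 0.97.

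**Figure D3:**
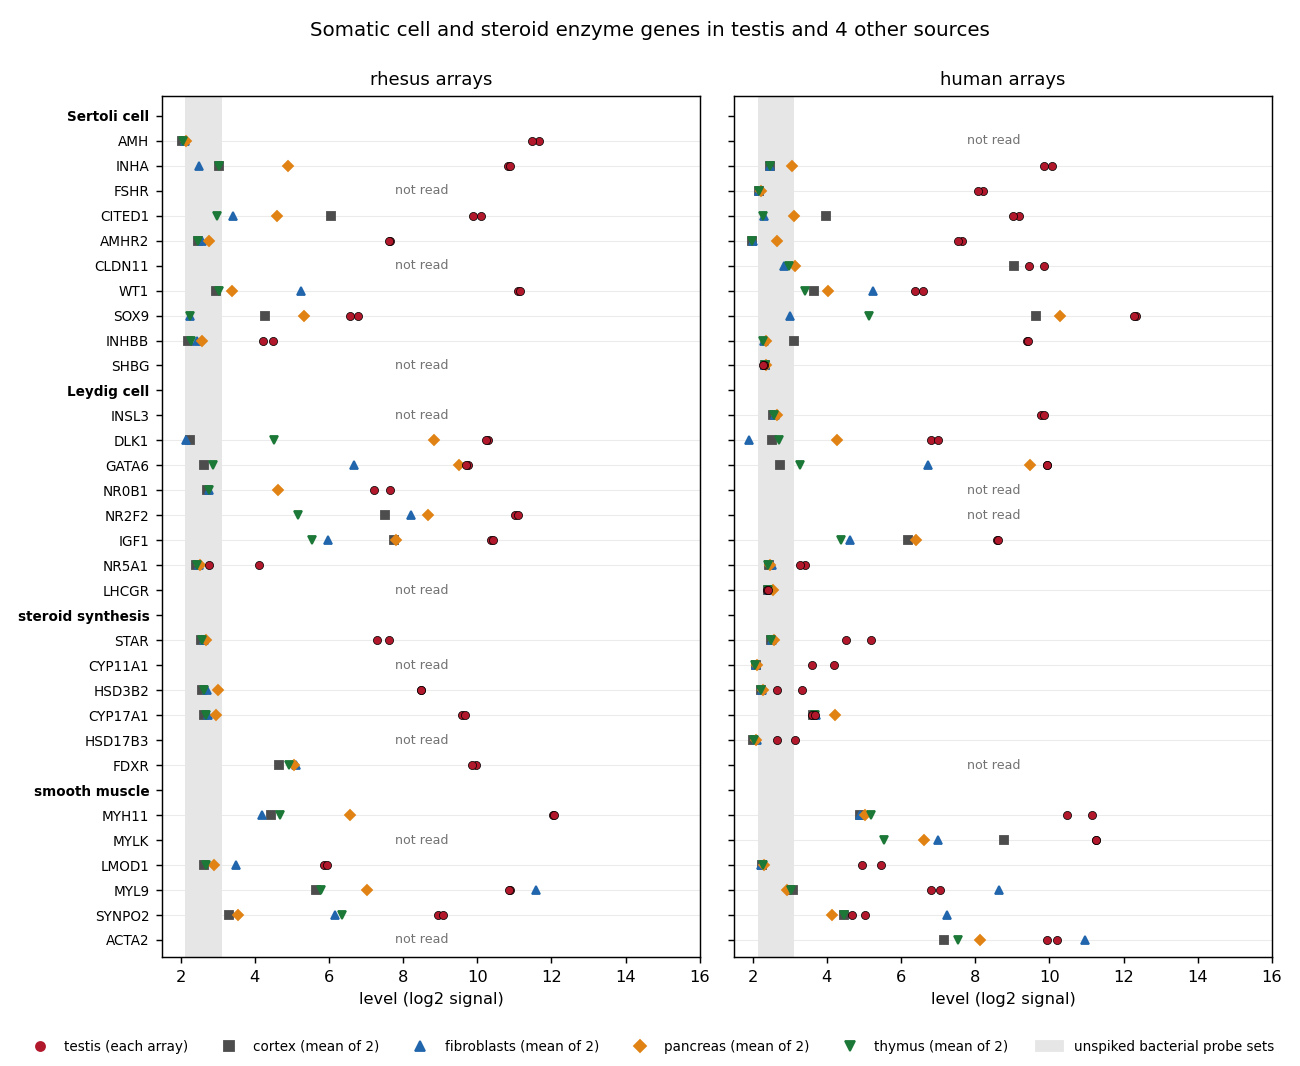
Levels (log2 signal, horizontal axis) of Sertoli cell, Leydig cell, steroid synthesis and smooth muscle genes on the rhesus and human chips. Red circles are the 2 testis arrays, the other symbols are the means of the 2 arrays of a source, and the grey band is the floor. AMH, INHA, INSL3 and STAR lie to the right in testis and at or near the floor in most other sources.

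Some growth factors of the gonad and most imprinted growth genes were also higher. Of the gonadal hormones, growth factors and receptors, 8 of 25 were higher on the rhesus chips and 9 of 26 on the human chips, with medians of -0.03 and 0.19, and FST, the activin-binding protein follistatin, was the 1 gene lower, on the human chips. INHBA, the activin A subunit, read 9.51 and 9.45 on the rhesus chips and 9.12 and 9.16 on the human chips in testis, with fibroblasts next at 8.0 and 7.59. TGFBR3, the co-receptor that lets inhibin act, differed by 3.27 ± 0.09 and 3.49 ± 0.16. BMPR1B, a receptor for bone morphogenetic proteins, and PTCH1, the hedgehog receptor, were called on the human chips only, with differences of 3.78 ± 0.19 and 4.22 ± 0.07, and 1 of the 5 PTCH1 probe sets was called. IGF1R, the receptor of the insulin-like growth factors, was higher by 2.17 ± 0.09 and 1.56 ± 0.06. Of the imprinted growth genes, which are read from 1 parental copy, 8 of 10 were higher on the rhesus chips and 9 of 12 on the human chips, with medians of 4.08 and 2.5, and NNAT, a gene of neurons and islets, was the 1 gene lower, on the human chips. H19, a noncoding RNA beside IGF2, read 14.07 and 14.17 on the rhesus testis arrays, and pancreas read 13.52. IGF2 itself, a fetal growth factor, read 8.72 and 8.58 in testis against 3.26 to 5.41 elsewhere, with no overlap. PEG3, MEST and PLAGL1 differed by 5.92 ± 0.23, 4.30 ± 0.08 and 3.86 ± 0.06 on the rhesus chips and by 3.42 ± 0.11, 4.09 ± 0.12 and 3.88 ± 0.08 on the human chips.

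Smooth muscle genes were called higher and lower, but the lower calls rested on fibroblasts. In all, 7 of 16 measured genes of the peritubular and smooth muscle list were higher and 2 lower on the rhesus chips, with a median of 0.45, and 7 of 21 were higher and 3 lower on the human chips, with a median of 0.40. MYH11, the heavy chain of smooth muscle myosin, read 12.03 and 12.07 on the rhesus testis arrays against 3.99 to 6.80 elsewhere, and 10.47 and 11.14 on the human testis arrays against 4.85 to 5.41. The call held for 3 of its 4 rhesus and 4 of its 7 human probe sets, but the brightest probe set not of the kind that can match several transcripts differed by -0.45 and -0.03. MYLK, the kinase that starts smooth muscle contraction, differed by 4.27 ± 0.17 on the human chips, and LMOD1, which nucleates actin in smooth muscle, by 2.97 ± 0.24 and 2.94 ± 0.13. Other genes of the list were higher in testis than in the mean of the other sources but lower than in fibroblasts. ACTA2, the smooth muscle actin, read 9.92 and 10.21 in testis and 10.95 in fibroblasts on the human chips, and MYL9, a myosin light chain, read 10.89 and 10.86 in testis and 11.58 in fibroblasts on the rhesus chips. SYNPO2, an actin-binding protein, was called on the rhesus chips alone, at 4.17 ± 0.12, and its human difference was -0.22 ± 0.12. The lower genes were KCNMB1, a subunit of a smooth muscle potassium channel, and TPM1, a tropomyosin, on both, and SMTN, a smooth muscle cytoskeletal protein, on the human chips. All of these calls were lost without fibroblasts in the contrast. The differences were then -0.07 and -0.02 for KCNMB1, -0.46 and -0.53 for TPM1 and -0.34 for SMTN. Human TPM1 stood at 0.17 without probe sets that can match several transcripts. KCNMB1 read 2.24 and 2.25 in testis and 8.17 in fibroblasts on the rhesus chips, with the other sources at the floor.

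Most matrix genes were higher in testis, and many of them were higher still in fibroblasts. Of the extracellular matrix list, 14 of 23 genes were higher on the rhesus chips and 17 of 26 on the human chips, with medians of 1.73 and 1.80, and in 9 and 11 of those the fibroblast mean was above the testis mean. COL1A1 and COL1A2, the chains of type I collagen, differed by 3.66 ± 0.05 and 2.93 ± 0.05 on the rhesus chips, where fibroblasts read 13.91 and 14.92. LAMA2, a laminin chain of basement membranes, and OGN, a small matrix proteoglycan, were higher than in each other source on both array types, with differences of 3.68 ± 0.10 and 4.01 ± 0.17 for LAMA2 and of 4.0 ± 0.19 and 2.59 ± 0.10 for OGN. SFRP1, a secreted Wnt inhibitor, was higher by 2.81 ± 0.08 and 3.04 ± 0.10, below its fibroblast level. DCN, the proteoglycan decorin, differed by 2.63 ± 0.06 and 2.63 ± 0.07 and was picked after its values were seen. ASPN, another matrix proteoglycan, was lower by the call on both, with differences of -3.03 ± 0.13 and -2.33 ± 0.25, and FN1, fibronectin, was lower on both, a call lost without fibroblasts in the contrast, at -0.25 and -0.17. COL18A1, a basement membrane collagen, had no settled direction. Its brighter rhesus probe set was lower, its other one was higher by 2.87, and the human gene was higher by 1.74 ± 0.32.

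Genes of vessels and leukocytes were called higher at shares not far from those of all genes, 16.1% on the rhesus and 8.67% on the human chips. Of the endothelial list, 3 of 14 genes were higher and 1 was lower on the rhesus chips, and 2 of 16 were higher and 1 was lower on the human chips, with medians of 0.12 and -0.16. ENG, the endothelial co-receptor endoglin, was higher by 2.39 ± 0.12 and 1.53 ± 0.10, and VWF, the von Willebrand factor, was higher by 2.25 ± 0.16 on the rhesus chips alone. CDH5, the cadherin of endothelium, was higher on both, but the calls were lost under quantile normalization, at 0.73 and 0.93, and without fibroblasts in the contrast, at 0.72 and 0.64. FLT1, a receptor of vascular growth factor, was lower on the human chips (at -0.88 without fibroblasts, and not called), and PECAM1, an adhesion protein of endothelium and leukocytes, was lower on the rhesus chips, with a difference of -1.29 ± 0.13 that was -0.36 without thymus, which read 9.41. Of the macrophage and leukocyte list, 3 of 14 were higher and 0 were lower on the rhesus chips (limma's unadjusted p was under 0.05 with a negative difference for 3), and 2 of 18 were higher and 1 was lower on the human chips, with medians of 0.12 and -0.10. PTPRC, the leukocyte antigen CD45, read 9.70 and 9.70 on the rhesus testis arrays, where cortex, fibroblasts and pancreas read 4.15, 3.08 and 5.69 and thymus read 13.10. Its human probe sets disagreed, with 2 of 5 higher and 1 lower, and the brightest one not of the kind that can match several transcripts differed by -1.34. CD74, the invariant chain of antigen presentation, was higher on both, CD68, a macrophage protein, was higher on the rhesus chips, and CD14, a monocyte receptor, was lower on the human chips. Without fibroblasts in the contrast the human calls of CD74 and CD14 and the rhesus call of CD68 were lost, at 0.55, -0.11 and 0.52.

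Germ cell genes were called for early stages, for meiosis and for the piRNA pathway, and for few genes of spermatids and sperm. Of the list of spermatogonia and primordial germ cells, 8 of 23 measured genes were higher and 2 lower on the rhesus chips, and 7 of 28 were higher and 2 lower on the human chips, with medians of 0.66 and -0.02. The lower genes were UCHL1, an enzyme that neurons also make, and TFAP2C, a factor of primordial germ cells, on both. These calls rested on fibroblasts, since without that source UCHL1 differed by -0.54 and -0.82, not called, and TFAP2C by 0.16 and 0.62. The human difference of TFAP2C was also -0.50, and not called, without the first human testis array. BEND4 read 10.83 and 10.83 on the rhesus and 9.93 and 10.05 on the human testis arrays, and cortex was next at 7.01 and 6.64. DDX4, the RNA helicase VASA that marks the germ line, read 6.72 and 7.37 on the human testis arrays against 2.33 to 2.41 elsewhere, a difference of 4.68 ± 0.15 (adjusted p = 5.89e-06 from limma). DND1, which protects germ cell messages, differed by 3.36 ± 0.10 on the human chips. PIWIL4, a small-RNA-binding protein of fetal and early germ cells, read 8.37 and 8.0 on the rhesus testis arrays and was within the floor in the other sources, but on the human chips it was within the floor in all 5. ELAVL2, an RNA-binding protein of neurons and germ cells, read 9.16 and 9.03 in testis and 10.18 in cortex on the rhesus chips, and was not above cortex. EGR4, a zinc-finger factor, likewise read higher in cortex, at 8.72 against 7.30 and 7.65 on the human chips.

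Further genes of this list were split, with some called on the rhesus chips alone and others called on neither array type. DAZL, SALL4, NANOS2 and NANOG were picked after their values were seen. DAZL, an RNA-binding protein that readies germ cells for gamete formation, was higher by 3.45 ± 0.13 on the rhesus chips, where 3 of its 4 probe sets were called, and differed by -0.02 ± 0.05 on the human chips. SALL4, a factor of stem and germ cells, was higher on the rhesus chips, at 5.62 and 4.92 in testis, as was NANOS2, which keeps male germ cells out of meiosis, at 4.07 and 3.91, with all other sources at the floor for both, and neither was called on the human chips. NANOG was higher by 1.00 ± 0.09 on the rhesus chips, but thymus read 10.05 against 9.48 in testis. Fibroblasts and cortex were close to testis, at 9.21 and 8.78, and pancreas was lowest, at 5.86. On the human chips NANOG differed by -0.25 ± 0.22 and was not called. KIT, the receptor of differentiating spermatogonia, UTF1, a chromatin protein of undifferentiated ones, ZBTB16, a stem cell repressor, and GFRA1, the receptor of GDNF, were not called on either array type, with rhesus differences of 0.66 ± 0.06, 0.66 ± 0.09, -0.04 ± 0.11 and -0.05 ± 0.03. GFRA1 was at the floor in testis, at 2.40 and 2.38, and so were MAGEA4 and TSPY1, markers of spermatogonia, at 2.78 and 2.75 for MAGEA4 and 2.88 and 2.87 for TSPY1 on the human chips.

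Meiosis genes were higher in part. On the rhesus chips 10 of 20 were higher and 0 lower (limma's unadjusted p was under 0.05 with a negative difference for 5), with a median of 1.27, and on the human chips 8 of 26 were higher and 1 was lower, with a median of -0.03. The lower gene was HSPA2, a heat shock protein of spermatocytes and brain, and this call was lost under quantile normalization, with an ordinary contrast or a replicate block, and without either human testis array. STAG3, a cohesin subunit of meiosis, read 7.4 and 7.23 on the rhesus testis arrays, and thymus was next at 5.34. SYCP1 and SYCP3, which build the core of the synaptonemal complex between paired chromosomes, were each above every other array in testis. SYCP1 read 5.05 and 5.64 on the rhesus chips and 5.09 and 4.75 on the human chips, and SYCP3 read 5.84 and 5.75 on the rhesus chips and 5.74 and 6.30 on the human chips. TEX12, of the same complex, differed by 2.27 ± 0.05 and 3.23 ± 0.12, TEX14, of the bridges between germ cells, by 3.03 ± 0.04 and 1.38 ± 0.12, and TEX15 by 2.12 ± 0.14 on the human chips. Genes of the breaking and exchange of DNA between paired chromosomes were called in part. MLH3, a mismatch repair protein of crossovers, was higher by 1.70 ± 0.11 and 1.33 ± 0.24 (the human call was lost without either testis array), and MEIOB, a DNA-binding protein of meiotic recombination, by 1.58 ± 0.08 on the rhesus chips, and both were picked after their values were seen. MEI1, which is needed for the breaks, was higher by 3.0 ± 0.18 on the rhesus chips, where fibroblasts read 9.82 against 9.63 and 9.63 in testis and 1 of 4 probe sets was called. SPO11, DMC1 and PRDM9 were not called wherever they were read. SPO11, which makes the breaks, was at the floor in testis on the rhesus chips, at 2.40 and 2.27. DMC1, the recombinase, read 3.65 and 3.70 there against 3.75 to 4.45 elsewhere, and PRDM9, which places the breaks, read 3.04 and 3.01 on the human testis arrays.

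The piRNA pathway, in which PIWI proteins and small RNAs silence transposons in the germ line, had most of its measured rhesus genes called. Of its measured genes 9 of 12 were higher on the rhesus chips and 7 of 16 on the human chips, 0 were lower on either (limma's unadjusted p was under 0.05 with a negative difference for 1 and 2), and the medians were 2.60 and 1.16. MAEL, a protein of the germ granules, read 7.01 and 7.0 on the rhesus and 5.71 and 5.93 on the human testis arrays with all other sources at the floor, and differed by 4.81 ± 0.08 and 3.45 ± 0.05. PIWIL2, a PIWI protein of early germ cells, differed by 3.07 ± 0.24 and 4.47 ± 0.09, and ASZ1, which tethers the machinery to mitochondria, by 2.46 ± 0.07 and 1.77 ± 0.02. HENMT1, which caps the ends of piRNAs with a methyl group, read 8.46 and 8.31 on the rhesus testis arrays and 7.27 in cortex. TDRD9 and TDRD1, Tudor-domain proteins of the pathway, were higher by 4.19 ± 0.08 and 3.93 ± 0.12 on the rhesus chips. On the human chips the testis pair disagreed for both, at 3.31 and 5.41 for TDRD9 and 4.53 and 2.67 for TDRD1. TDRD1 was not called there, and the call of TDRD9 (adjusted p = 0.0293 from limma) was lost without the second human testis array and without any of 6 of the other 8. PIWIL1, the PIWI protein of spermatocytes and spermatids, was not called, at 3.35 and 3.33 in testis against 3.22 to 3.91 elsewhere.

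Most late germ cell genes were within the floor in testis. Of the spermatid and sperm list, 2 of 24 genes were higher on the rhesus chips and 2 of 38 on the human chips, with medians of -0.11 and -0.05. The 1 gene lower was ADAM18 on the rhesus chips. The testis mean was within or under the floor for 18 of the 24 genes on the rhesus chips and for 30 of the 38 on the human chips. PRM1 and PRM2, the protamines that pack sperm DNA, read 2.43 and 2.43 for PRM1 and 2.36 and 2.33 for PRM2 on the human testis arrays. TNP1 and TNP2, the transition proteins that come before them, read 3.52 and 3.36 for TNP1 and 2.92 and 2.86 for TNP2. ODF1, of the sperm tail, read 2.10 and 2.10, AKAP4, of its fibrous sheath, read 3.93 and 3.85, and PGK2, the sperm's own phosphoglycerate kinase, read 2.90 and 2.89. On the rhesus chips PRM1 read 3.21 in testis and 3.34 to 3.58 in the other sources, a difference of -0.22 ± 0.05. A floor level on the human chips alone does not show absence, since DAZL read 2.87 in testis there and 6.91 on the rhesus chips. None of the 7 genes from PRM1 to PGK2 was called wherever it was read, and their differences lay between -0.20 ± 0.16 and 0.63 ± 0.26 on the human chips. ZPBP, a protein of the acrosome, was the exception on both, at 7.57 and 7.58 on the rhesus and 7.75 and 8.03 on the human testis arrays, with differences of 4.54 ± 0.04 and 5.04 ± 0.13. CATSPER2, a channel subunit of the sperm tail, was higher by 1.44 ± 0.08 on the rhesus chips, with thymus at 6.09 and testis at 5.82 and 6.06. ADAM18, a sperm surface protein, was higher by 6.49 ± 0.09 on the human chips and lower by the call on the rhesus chips, at -1.65 ± 0.13, where its dimmer probe set was higher by 1.42, so the 2 rhesus probe sets disagreed.

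**Figure D4:**
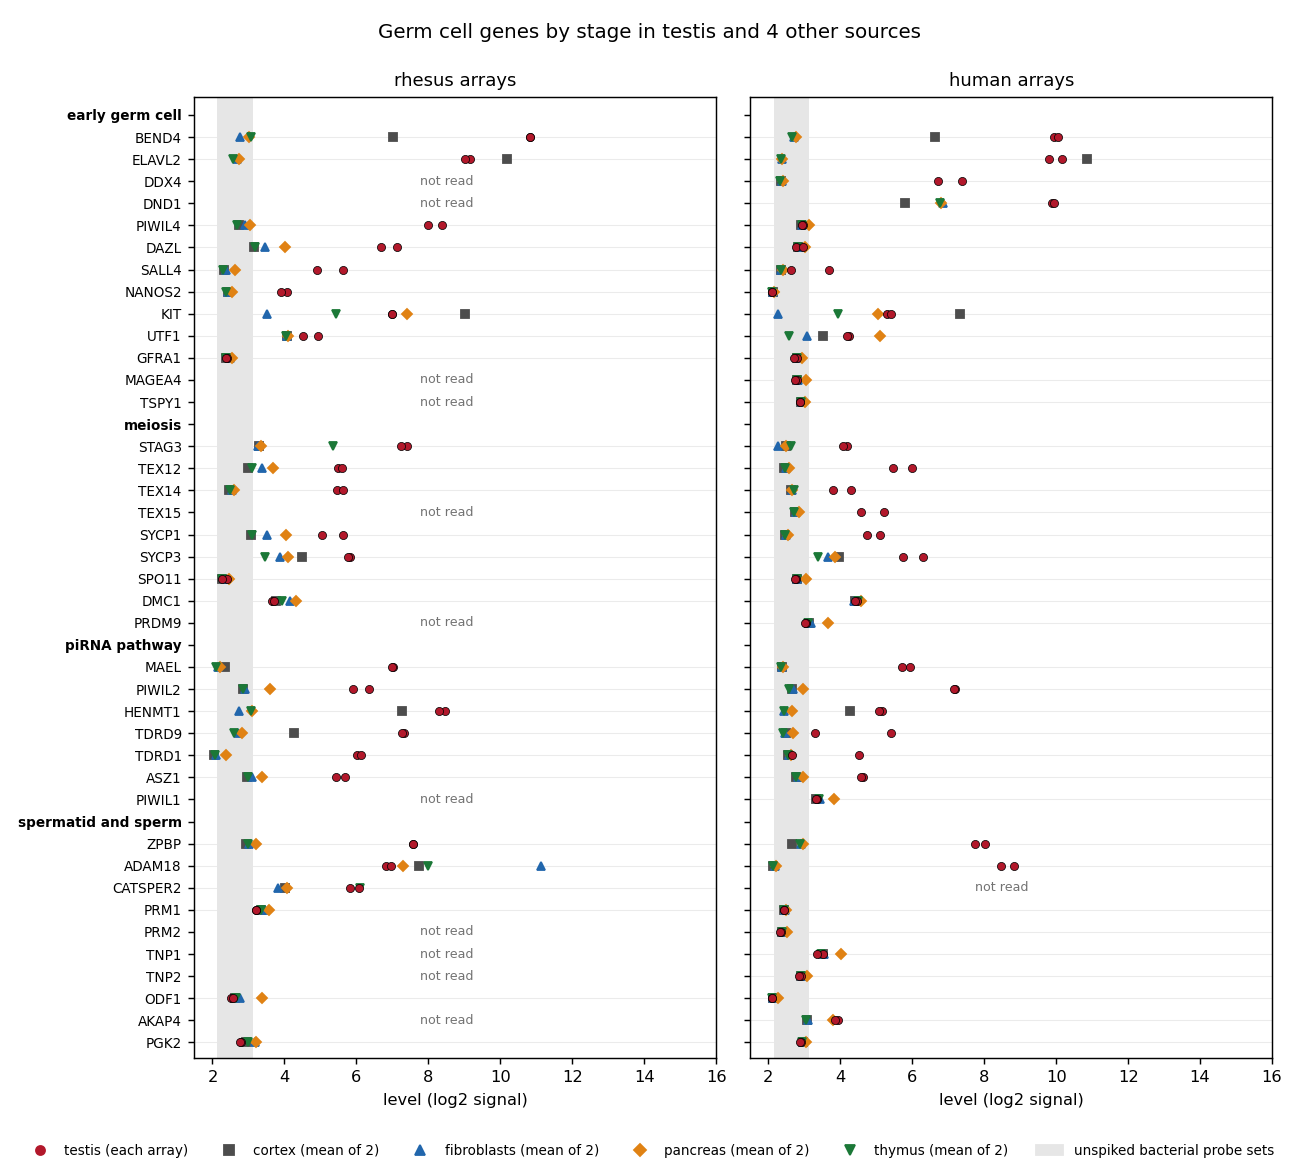
Levels (log2 signal, horizontal axis) of early germ cell, meiosis, piRNA pathway and late germ cell genes on the rhesus and human chips, with the testis arrays as red circles, the other sources as means of 2 arrays and the floor as a grey band. BEND4, DDX4, MAEL and ZPBP stand to the right in testis, and PRM1, PRM2, TNP2, ODF1 and PGK2 lie in or beside the band in every source.

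Some glutathione transferases of the alpha and mu classes were higher in testis, more of them on the human than on the rhesus chips. These enzymes join glutathione to reactive compounds, and GSTA3 also acts in the making of steroid hormones. GSTA3 read 11.63 and 11.68 on the rhesus testis arrays, and the other 8 arrays read 3.58 to 4.97 with a median of 3.81. The human chips read 11.15 and 10.80 in testis and 2.81 to 5.47 elsewhere, and pancreas was next on both. Its differences were 7.62 ± 0.08 (adjusted p = 1.98e-08 from limma) and 7.47 ± 0.09 (limma's adjusted p = 1.27e-07). The brighter rhesus probe set of GSTA3 is of a kind whose probes can match related genes, and the other rhesus probe set was higher by 4.28. Its close paralogs had other patterns on the rhesus chips. GSTA1 was highest in pancreas there, at 11.29 against 8.11 and 8.08 in testis, but on the human chips testis was highest, at 6.34 and 6.48 against 5.01. GSTA2 was not called, at 8.81 and 8.67 in testis and 10.34 in fibroblasts, and GSTA4 was highest in cortex, at 10.44 against 9.76 and 9.71 in testis.

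Among mu class enzymes, GSTM3, the isozyme known from testis and brain, read 13.23 and 13.15 on the rhesus testis arrays and 11.24 in cortex, with differences of 6.62 ± 0.13 and 4.12 ± 0.23, and its uncalled human probe set stood at a difference of 0.00. GSTM1, GSTM2, GSTM4 and GSTM5 were higher than in each other source on the human chips, by 2.37 ± 0.24, 2.48 ± 0.10, 2.77 ± 0.05 and 3.34 ± 0.08, and these near-identical genes can share probes. MGST1, the microsomal enzyme, went the other way, with differences of -2.57 ± 0.09 and -2.47 ± 0.14, the latter at -0.14 without probe sets that can match several transcripts. Over the list, 4 of 16 genes were higher and 2 lower on the rhesus chips and 10 of 20 were higher and 1 was lower on the human chips, with medians of 0.42 and 0.78. The shares higher were 25% and 50%, against 16.1% and 8.67% of all genes. GSTK1, a transferase of mitochondria and peroxisomes, was the other lower gene on the rhesus chips. The human call of GSTA4, a difference of 1.32 ± 0.38 (adjusted p = 0.0381 from limma), was lost without any 1 of the 8 arrays of cortex, pancreas, testis and thymus.

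Other redox enzymes were more often lower than higher. On the rhesus chips 10 of 27 genes were lower and 5 higher, and on the human chips 9 of 40 were lower and 4 higher, with medians of -0.01 and -0.06, close to those of all genes. The higher genes were GPX8, TXNIP, GPX7, EPHX1 and GPX2 on the rhesus chips and PRDX1, TXNIP, GPX7 and SOD3 on the human chips. SLC7A11, the cystine importer that feeds glutathione synthesis, read 4.33 and 4.49 in testis on the rhesus chips against 9.15 in cortex, 8.45 in fibroblasts and 7.95 in pancreas, and thymus read 4.87. Its differences were -3.20 ± 0.19 and -1.89 ± 0.08. SOD2, the superoxide dismutase of mitochondria, differed by -3.64 ± 0.08 on the rhesus chips, where fibroblasts read 12.92 and its second probe set was higher by the call. On the human chips SOD2 differed by -1.09 ± 0.22, a call lost without either human testis array or the first human fibroblast array. The human call was also lost without fibroblasts in the contrast, at -0.27, and under quantile normalization, at -0.97. NQO1, a quinone reductase, and TXN, thioredoxin, were lower by the call on the human chips, with differences of -2.37 ± 0.28 and -1.89 ± 0.09. GPX4, which repairs lipid peroxides and is a structural protein of sperm, was lower by the call on both, at -1.47 ± 0.07 and -1.24 ± 0.05, and was picked after its values were seen, as was PRDX6, a peroxiredoxin. PRDX6 read 2.71 and 2.47 in testis on the rhesus chips, at the floor, and 10.77 and 10.71 on the human chips, where its difference was 0.29 ± 0.05 against -2.36 ± 0.06 on the rhesus chips. Fibroblasts, pancreas and thymus were also low for PRDX6 on the rhesus chips, at 2.94, 3.89 and 2.85, and only cortex was high, at 10.11. PRDX1, another peroxiredoxin, was higher by 1.86 ± 0.05 on the human chips, and TXNIP, which binds thioredoxin, was higher by 2.23 ± 0.06 and 1.85 ± 0.13.

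TKTL1 was the gene with the highest mean difference over both array types. It encodes a relative of transketolase, an enzyme of the pentose phosphate pathway that also supplies reducing power for glutathione. Its levels were 11.77 and 11.73 on the rhesus testis arrays and 2.80 to 3.01 on the other 8, a difference of 8.85 ± 0.04 (adjusted p = 1.21e-09 from limma). The human chips read 8.55 and 8.81 in testis and 2.15 to 2.22 elsewhere, a difference of 6.49 ± 0.06 (limma's adjusted p = 5.39e-08). The second human probe set of TKTL1 was at 2.30 in testis and was not called, and both rhesus probe sets were called. TKT, the common transketolase, was lower by the call on the human chips, at 7.79 and 8.14 in testis and with a difference of -1.20 ± 0.17. A second human probe set of TKT was called too, at -1.47. The TKT probe set left without the kinds that can match several transcripts differed by -0.06, but it was within the floor in every source. TKTL2 was at the floor in testis, at 2.25 and 2.25. Over the pathway, 2 of 7 genes were higher and 1 was lower on the rhesus chips and 2 of 13 were higher and 2 lower on the human chips, with medians of -0.14 and -0.10. The shares higher were 28.6% and 15.4%, against 16.1% and 8.67% of all genes. RPIA, a pentose isomerase, was the other higher gene on both, and its calls were lost under quantile normalization, at 0.85 and 0.83, without pancreas in the contrast, at 0.97 and 0.81, and without fibroblasts, at 0.50 and 0.46. PRPS2, which makes the nucleotide precursor PRPP, was lower on both, and its human call was lost without thymus, at -0.77.

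Retinoid enzymes were split between genes high in testis and genes high elsewhere. Retinoic acid, made from vitamin A by retinol and retinal dehydrogenases and removed by CYP26 enzymes, is the known signal for the start of meiosis. DHRS2, a short-chain dehydrogenase, read 10.94 and 10.86 on the rhesus testis arrays against 2.27 to 2.44 elsewhere, and 7.74 and 8.06 on the human ones against 2.51 to 2.62. ALDH1A2, which makes retinoic acid, differed by 4.23 ± 0.13 on the rhesus chips, and on the human chips 1 of its 2 probe sets was called, though not the brighter one. ALDH1A1, of the same family, was higher by 3.14 ± 0.11 on the human chips, with pancreas at 9.49 against 10.38 and 10.37 in testis. ADH5, an alcohol dehydrogenase of every tissue, was higher by 2.0 ± 0.03 and 1.66 ± 0.19, but without human probe sets that can match several transcripts the difference was -0.02. On the removing side, CYP26B1, picked after its values were seen, read 8.60 and 8.34 in testis on the human chips, a difference of 2.88 ± 0.18, while its rhesus probe set was at the floor in all sources. RBP4 and TTR, which carry retinol in blood, were lower by the call, at -3.17 ± 0.14 and -2.10 ± 0.10 for RBP4 and -2.35 ± 0.20 for TTR on the human chips, where pancreas read 7.15 for RBP4 and 12.39 for TTR. CRABP2, which hands retinoic acid to its receptor and was picked after its values were seen, was lower by 1.94 ± 0.02 and 1.51 ± 0.15 on the log2 scale, with fibroblasts highest. In all, 7 of 27 genes were higher and 4 lower on the rhesus chips, and 4 of 33 were higher and 5 lower on the human chips, with medians of -0.01 and -0.07. The shares higher were 25.9% and 12.1%, against 16.1% and 8.67% of all genes, whose medians were -0.08 and -0.06. The other lower genes were DHRS9 on both, CRABP1 on the rhesus chips and RDH11 on the human chips, which encode a dehydrogenase, a binding protein and a retinal reductase. Without fibroblasts in the contrast the calls of CRABP2, at -0.38 and -0.37, DHRS9, at -0.21 and -0.18, and RDH11, at -0.98, were lost. The call of TTR was lost without pancreas, at -0.64, and that of CRABP1 without thymus, at -0.98. Of the receptors and response genes, RARRES2, which encodes the secreted protein chemerin, was the 1 gene higher on each array type, of 8 and 9 measured, by 4.97 ± 0.10 and 3.72 ± 0.13, and the medians were -0.14 and -0.03. RARRES1 was lower on the rhesus chips, a call lost without fibroblasts in the contrast, at -0.89, and without thymus, at -0.68.

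**Figure D5:**
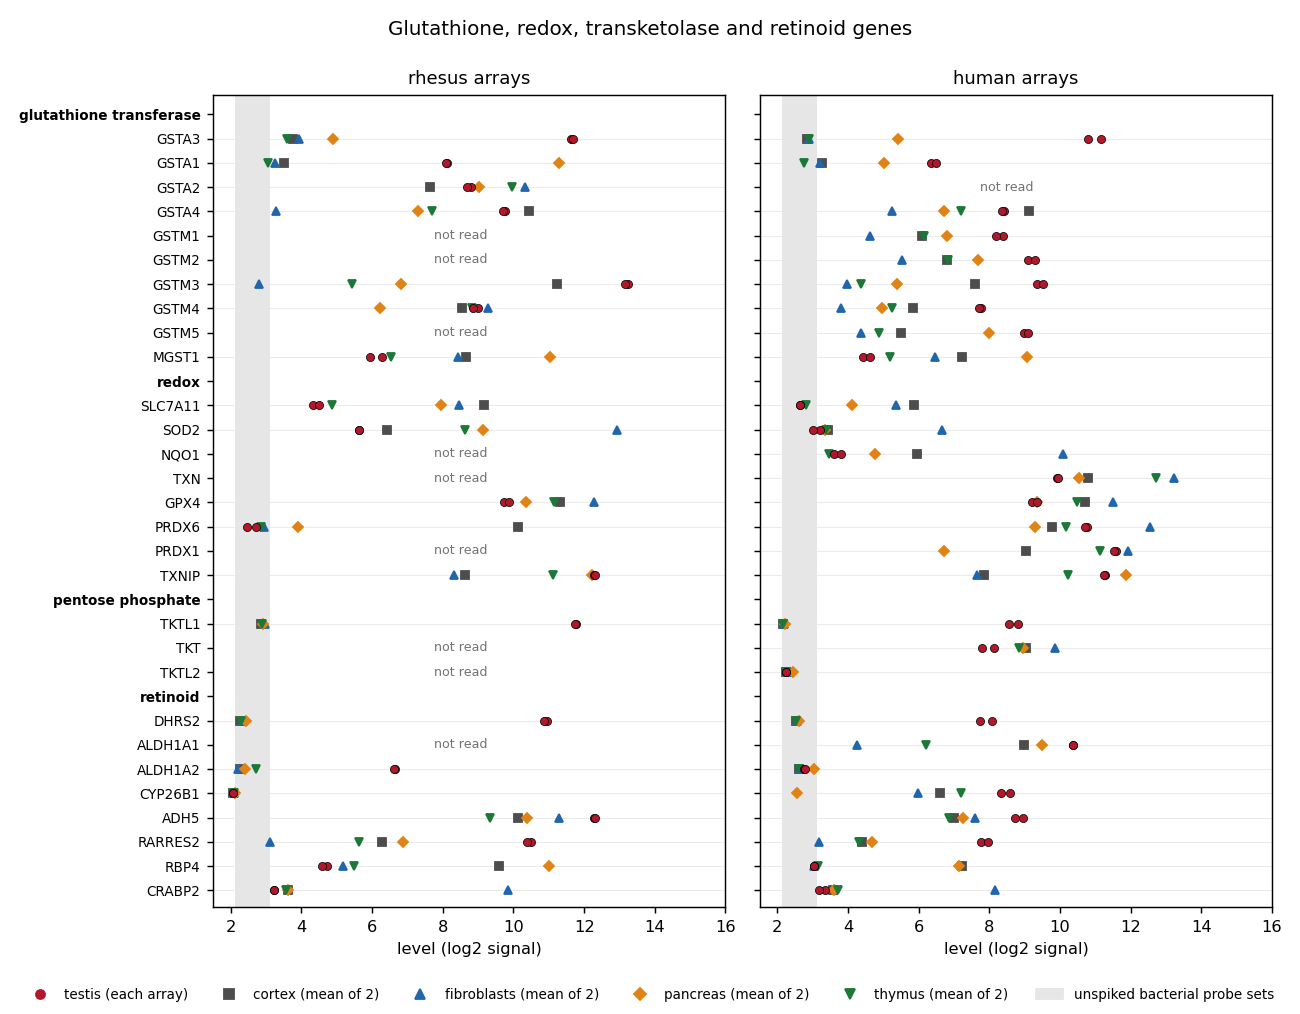
Levels (log2 signal, horizontal axis) of glutathione transferase, redox, transketolase and retinoid genes on the rhesus and human chips, with the testis arrays as red circles, the other sources as means of 2 arrays and the floor as a grey band. GSTA3, TKTL1 and DHRS2 lie to the right of every other source, and SLC7A11, SOD2, MGST1 and RBP4 lie at or near the left end of theirs.

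The 10 genes with the lowest mean difference over both array types were BASP1, RGCC, SLC1A2, MGLL, STMN2, SYBU, TNC, PDE4B, PRSS2 and MET. Most of these had 1 or a few sources with a high level. BASP1, a membrane protein of growing axons, read 4.58 and 4.23 in testis and 13.52 in cortex on the rhesus chips, and SLC1A2, a glutamate transporter of astrocytes, read 2.73 and 3.18 in testis and 13.80 in cortex. PRSS2, a trypsinogen, was at 15.84 in pancreas and at the floor in testis. TNC, a matrix protein of wounds and culture, was at 11.95 in fibroblasts and at 3.06 and 3.07 in testis. RGCC, a regulator of the cell cycle, and MGLL, which breaks down monoglycerides and an endocannabinoid, differed from these, since both were lower in testis than in each other source on both array types. RGCC read 5.84 and 5.88 in testis on the rhesus chips, and the other 8 arrays read 9.09 to 11.20, with differences of -4.46 ± 0.03 and -4.16 ± 0.16, though on the human chips 1 of 3 probe sets was called and the brightest not of the kind that can match several transcripts differed by -0.05. MGLL differed by -4.64 ± 0.15 and -3.78 ± 0.25, and both its probe sets were called on each array type. STMN2, SYBU, PDE4B and MET had rhesus differences of -4.13 ± 0.26, -4.10 ± 0.23, -3.71 ± 0.20 and -3.86 ± 0.10.

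Some genes were called on 1 array type alone. The 4 with the largest positive difference were AMBP, PAPPA2, CYP17A1 and CNNM2, all on the rhesus chips. CYP17A1 belongs here only through the choice of the human probe set, since its other human probe set, described above, was higher by 5.80. AMBP, the precursor of alpha-1-microglobulin, read 11.09 and 11.12 on the rhesus testis arrays and 2.48 and 2.48 on the human ones, where it was at the floor in every source. PAPPA2, a protease of insulin-like growth factor binding proteins, differed by 6.94 ± 0.13 and -0.37 ± 0.13, and CNNM2, a magnesium transport protein, by 6.49 ± 0.11 and -0.16 ± 0.05. Only 1 rhesus probe set was called for each, of 2 for AMBP, 5 for PAPPA2 and 3 for CNNM2. The 2 with the largest negative difference were ATP8B3, a lipid flippase, and SETBP1, a DNA-binding protein, with rhesus differences of -6.70 ± 0.03 and -4.51 ± 0.08 and human ones of 0.49 ± 0.03 and 0.71 ± 0.20. A dimmer rhesus probe set of ATP8B3 was higher by 3.01, against the sign of the brighter one. Whether the array types differed was not tested, since their tables were made separately, and the human probes were designed on human transcripts.

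Markers of the other sources were read in testis as a check of the preparations. Of the thymocyte list, 5 of 8 measured genes on the rhesus chips and 2 of 12 on the human chips were higher in testis than in each of cortex, fibroblasts and pancreas, while thymus was far above testis. DNTT, the enzyme that adds bases during receptor rearrangement, read 7.75 and 8.0 on the rhesus testis arrays, 3.18 to 3.67 in those 3 sources and 12.98 in thymus. CD1B, a lipid-presenting protein of cortical thymocytes, read 8.51 and 8.39 in testis, 3.19 to 3.99 in those 3 and 13.97 in thymus. The other rhesus genes of the 5 were CD1A, CD8A and CD8B, and the 2 human genes were RAG1 and DNTT. On the linear scale, and above the mean of cortex, fibroblasts and pancreas, the testis signals of all 8 measured rhesus genes were -0.195% to 2.78% of the thymus signals, with a median of 1.3%. Those of the 12 human genes were -13.5% to 3.33%, with a median of 0.566%, and the lowest of them, CD3E, was within or under the floor in every source. The log2 of the summed linear signal of the list was 9.82 and 9.84 on the rhesus testis arrays, 6.25 and 6.45 in cortex, 6.07 and 6.30 in fibroblasts, 6.51 and 6.94 in pancreas and 15.40 and 15.44 in thymus. In the human table it was 7.84 and 7.89 in testis, 6.77 to 7.38 in cortex, fibroblasts and pancreas, and 13.01 and 13.02 in thymus. CD4 and PTCRA were within the floor in testis on the rhesus chips. Without thymus in the contrast, 8143 probe sets were higher in testis on the rhesus chips and 4062 on the human chips, against 6779 and 3306 with it, an alternative chosen after seeing the data. Where these signals come from, and their part in levels such as that of PTPRC, was not tested.

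The pancreatic acinar markers were at or near the floor in testis. All 7 measured on the rhesus chips and all 8 on the human chips were called lower, with medians of -3.20 and -3.04, and their testis means lay between 2.26 and 3.17 on the rhesus chips. The log2 of their summed linear signal on the rhesus chips was 5.48 and 5.54 in testis, 5.53 and 5.63 in cortex and 18.13 and 18.15 in pancreas. PLA2G1B, described above, is not on that list. Neuronal markers were lower for 5 of 6 and 10 of 12 genes, with medians of -2.23 and -1.92. The 1 gene higher was GAD2 on the rhesus chips and RBFOX3 on the human chips. Thymus was above testis for GAD2. For RBFOX3 cortex read 10.04 against 5.64 in testis, and its dimmer human probe sets differed by -0.32 and -0.22, not called. Neither gene was called without fibroblasts in the contrast, at 0.68 and 0.77, or without pancreas, at 0.68 and 0.78. RBFOX3 was also not called without thymus, at 0.75. Epididymis genes, from the duct beside the testis, were higher for 1 of 11 genes on the rhesus chips, which was DEFB123, an antimicrobial peptide at 5.41 and 5.63 in testis, and for 0 of 14 on the human chips (limma's unadjusted p was under 0.05 for 9). Without probe sets that can match several transcripts DEFB123 differed by 0.13 and was not called. Cell division genes were higher for 3 of 12 and 3 of 16 genes and lower for 1 and 2, with medians of 0.34 and -0.20. Over all genes, 16.1% and 8.67% were higher and 11.2% and 5.63% lower. Fibroblasts and thymus, which hold dividing cells, stood above testis for each cell division gene that was higher, MCM2, MCM5 and TOP2A. All 3 lost the call on both array types without pancreas in the contrast, with differences of 0.81 and 0.67, 0.56 and 0.72, and 0.74 and 0.02. On the human chips MCM5 and TOP2A stood at -0.32 and -0.96 without probe sets that can match several transcripts. The lower ones were CDK1 on the rhesus chips and BIRC5 and CCNB1 on the human chips, and without thymus in the contrast CDK1 and CCNB1 were not called, at -0.37 and -0.36. Of the genes on the Y chromosome, SRY was the 1 measured on the rhesus chips and was higher, at 8.71 and 8.70 in testis and 7.08 in cortex, while its human probe set was under the floor in every source. UTY and DDX3Y were the 2 of 10 higher on the human chips, and neither was higher than in each other source taken singly. The call of UTY was lost without probe sets that can match several transcripts, at 0.38, and that of DDX3Y with its probe sets averaged, at 0.76.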

How the data were processed

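Total RNA of 5 sources of the rhesus macaque, 5 µg per labelling, was read on 10 Affymetrix rhesus arrays and 10 Affymetrix human arrays (rhesus and human chips), 2 of each for every source. The authors deposited log2 values per probe set, made by robust multi-array averaging (RMA) according to the submitters' notes, and the version was not given in the sources used here. Each array type was normalized apart, so every fit and test stayed within its table. The analysis of variance in the study's methods runs on single probes, which these tables do not hold.

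Sources were taken from the labels. From the deposited log2 values, limma 3.58.1 in R 4.3.3 (lmFit and eBayes, no covariate) compared testis with the mean of the other 4 source means, and with each source, over all probe sets apart from controls (52766 on the rhesus and 54613 on the human chips). P-values were adjusted over all of them (Benjamini-Hochberg), and calls need an adjusted p under 0.05 and an absolute difference of at least 1. Genes were named through the platform annotation, for probe sets with 1 symbol (24956 rhesus and 41091 human), and each was read from its brightest probe set, 14132 and 19775 genes. Tables were handled in Python 3.11.15 with pandas 2.3.3. The procedure was tested on simulated data with known changes.

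The 26 gene lists, the markers and the members were chosen with earlier results of these data known. The text names the 4 label markers, the 15 highest and 10 lowest genes called on both array types, the 4 highest and 2 lowest called on exactly 1, up to 6 called members per list, paralogs of GSTA3 and TKTL1, members whose not being called is the result, and others that are said to be chosen after their values were seen. Alternatives were quantile normalization, subtraction of array medians or of spiked controls, a filter on dim probe sets (a source mean of at least 5), no minimum difference, a prior variance by level, an ordinary contrast, a replicate block, testis against 3 sources without pancreas, fibroblasts or (chosen after seeing the data) thymus, each array left out in turn, the average over the probe sets of each gene, and the brightest probe set without the _x_at and _s_at kinds, which can match several transcripts. A probe set left by that last step can itself be at the floor, as for TKT on the human chips, and then says little about the gene. The number of arrays limits the precision, since each source has 2 per type and the arrays are technical replicates. A planned search for a promoter motif was not run, and promoter sequences were not used here.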

Additional observations from a re-analysis of the deposited data

How the results depend on the processing

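Quantile normalization, subtraction of array medians or spiked controls, a prior variance by level, the ordinary contrast and the filter on dim probe sets kept the counts of probe sets higher and lower within 1.5 times, except that quantile normalization raised those lower than in each other source to 241 on the rhesus and 75 on the human chips. With no minimum difference, 12772 rhesus probe sets were higher, 20417 lower, 3520 higher than in each and 1361 lower than in each, and the human chips gave 6951, 15236, 1865 and 361. The genes called on both array types were then 2154 higher and 2200 lower, and averaging the probe sets of each gene left 598 higher. Leaving out pancreas, whose 3′ to 5′ gap was widest by 3 of 4 measures, gave 6097 higher and 4762 lower rhesus probe sets and 2753 and 2635 human ones. Leaving out fibroblasts gave 6991 and 4203, and 3536 and 2039. Without thymus (chosen after seeing the data) there were 8143 and 4615, and 4062 and 2400.

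Counts of higher genes in the lists moved most on the human chips. The dim filter left 0 for steroid synthesis, 4 for meiosis, 3 for the piRNA pathway and 2 for redox enzymes. Without _x_at and _s_at probe sets there were 3 for smooth muscle, 3 for meiosis, 4 for glutathione transferases and 2 for redox enzymes, and averaging probe sets left 4 for smooth muscle. With no minimum difference the human counts were 5 for steroid synthesis, 4 for spermatid genes, 7 for retinoid enzymes and 10 for redox enzymes, and the rhesus counts were 7 for glutathione transferases and 10 for redox enzymes.

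Leaving out 1 array gave 6524 to 6842 rhesus probe sets higher, 3909 to 4094 lower, 1696 to 1770 higher than in each and 131 to 154 lower than in each, and 3127 to 3315, 1813 to 1980, 808 to 930 and 44 to 53 on the human chips. The human steroid count ran from 2 to 4. Of the genes named, 22 calls were lost without some array, with differences of 0.50 to 1.84 in size: rhesus CD68, DHRS11, GSTK1, HSD11B1, MCM2, MCM5, NR5A2, PMVK and UCHL1, and human CD14, CD74, COL18A1, FST, GSTA4, HSPA2, MLH3, RPIA, SOD2, SOD3, TDRD9, TFAP2C and TOP2A.

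Replicate numbers did not pair the arrays, since deviations of same-numbered arrays correlated at -0.03 to 0.01 on the rhesus and -0.03 to 0.02 on the human chips over 10 pairs of sources. As a replicate block they gave 6770 higher and 4047 lower rhesus probe sets and 3272 and 1940 human ones, and of the named genes only the human call of HSPA2 was lost.

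Some differences changed sign. Without fibroblasts the rhesus differences of FST, HSD11B1 and TFAP2C were 1.19, 0.36 and 0.16, and the human ones of FST and TFAP2C were 0.67 and 0.62. Without pancreas NR5A2 stood at 0.57 and 0.045. Without thymus the rhesus values of CCNB1 and PTCRA were 1.18 and 0.33, and the human value of CD8A was 0.15. Averaging probe sets gave 0.64 for COL18A1 and -1.44 for HOPX on the rhesus chips and 2.81 for CYP17A1, 0.16 for PRPS2 and -0.019 for TOP2A on the human chips. Without _x_at and _s_at probe sets rhesus MYH11 stood at -0.45, and on the human chips ADH5 was at -0.016, APOA1 at -0.028, DLK1 at -0.037, F5 at -0.039, MCM5 at -0.32, MYH11 at -0.028, MYL9 at -0.044, PTPRC at -1.34, TOP2A at -0.96 and TPM1 at 0.17. Calls lost with the sign kept numbered 39 without fibroblasts, 38 with probe sets averaged, 17 without pancreas, 15 without _x_at and _s_at probe sets, 13 under quantile normalization and 10 without thymus. The cause was not tested for these changes. Signal over background limits germ cell and steroid genes, since a source at the floor gives only a bound for the difference.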
